A study of Mus musculus with 25 samples.

Results

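The genes of the S100 and annexin families were followed in RNA from E0771 tumours of mice with and without an antibody against CD73. The members were the entries of the deposited table whose symbol is an S100 gene (A series, S100b, S100g or S100z) or a numbered annexin (Anxa), which gave 28 of 25006 entries, 17 S100 and 11 annexin genes. Expression was not part of this choice. E0771 is a mammary carcinoma line of C57BL/6 mice, the strain of all animals here. One group of 3 libraries came from tumours labelled as control, with no agent named, and the other group of 3 came from tumours of mice given anti-CD73 every 3 days. CD73 is the ectoenzyme that makes adenosine from AMP at the cell surface. The labels call all 6 preparations enriched CD8+ T cells from tumour tissue and do not say whether each replicate was a separate animal, so each p-value is set against the variation of these libraries alone, and that variation may be technical. Of the 25 samples in the series, 19 came from spleen CD8+ T cells and were not used here. The age of the mice and the dose are not given in the labels.

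S100 proteins are small calcium sensors built from a pair of EF-hand loops, which open a binding surface for other proteins when calcium enters the cell. Annexins are calcium-dependent binders of acidic membrane phospholipids that act in membrane repair, vesicle traffic and the anchoring of plasminogen activators. The families meet physically, because several S100 proteins dock on the N-terminal tail of an annexin. Outside the cell, S100A8 and S100A9 from neutrophils act as alarm signals in inflamed tissue and tumours.

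Values are normalized counts, that is gene reads divided by a size factor per library. Between 10180624 and 17161679 reads were recovered per library. The T cell label was checked against 9 measured T cell genes, whose summed level was only 142 to 588 normalized counts in controls and 284 to 552 after anti-CD73, with Cd8a between 7.60 and 122 over all 6 libraries. Macrophage genes (12 measured, 9608 to 17815 in controls and 15865 to 26091 after anti-CD73) were also present. Of 8 tumour epithelium genes, Krt8 alone (1856 to 4559) made up most of the summed level, while Epcam was at or below 9.14 and Krt5 and Cldn3 at or below 1.06 in every library. The material was mixed, and in such bulk RNA fewer cells of a type and less RNA per cell cannot be told apart. Control replicate 1 stood apart from the other controls. The SD over all 12262 tested genes of its log2 difference from their mean was 0.75, against 0.35 between control replicates 2 and 3, and over the 20 tested members the same values were 0.61 and 0.35. Where leaving it out changed a call of a named gene or list, the value without it is given as well. Of the 9 tested T cell genes, limma called 0 with all 6 libraries. Without control replicate 1 it called 4 higher after anti-CD73, against 11.9% of all tested genes. Cd8a was among these (log2 fold change 1.11 with that library and 2.13 without it, limma adjusted p = 0.0225). The omitted library held the highest T cell sum of all 6 (588, against 284 to 552 after anti-CD73). Its Cd8a was the highest as well (122, against 35.0 to 90.2 after anti-CD73), so these calls depend on leaving it out.

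Of the 28 members, 20 had a mean of at least 10 normalized counts and were tested, 4 had reads but stayed under that level, and 4 (S100a5, S100g, S100z and Anxa10) had no read in any library. By limma with Benjamini-Hochberg adjustment over all genes, 0 of the 20 passed at 0.05 (background 0% of 12262 genes), with adjusted p between 0.149 for S100a10 and 0.999 for S100a4. The quasi-likelihood test of edgeR also called 0 members. DESeq2 called 5 (background 4.78%), of which 4 were lower (S100a10, S100a11, Anxa3 and Anxa5, background 1.93%) and 1 was higher (S100a9, background 2.85%). An unadjusted p under 0.05 was reached by 6 members that were lower after anti-CD73 (background 6.82%) and by 3 that were higher (background 8.69%). In all, 15 of the 20 had a log2 fold change below 0 (49.5% of all genes did), with a median of -0.22 against 0.0039 over all tested genes. The groups did not overlap for 8 members that were lower (background 12%) and 2 that were higher (background 11.5%). Without control replicate 1, limma called 11 of the 20 (background 22.2%), 10 lower (background 10.3%) and 1 higher (background 11.9%). The lower ones were S100a1, S100a6, S100a10, S100a11, S100a13, Anxa1, Anxa2, Anxa3, Anxa5 and Anxa11, and the higher one was S100a9. Without that library edgeR called 10 lower (background 9.7%) and 1 higher (background 12.3%), and DESeq2 called 9 lower (background 9.54%) and 1 higher (background 12.3%). A limma fit with a block by the numbers in the sample descriptions called 8 lower (background 5.58%) and 1 higher (background 8.94%). That block drops control replicate 1 and anti-CD73 replicate 2 from the contrast by construction, so it is not separate from the fits without control replicate 1. These counts cover only the members that passed the level filter.

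S100a9 and S100a8 encode the chains of calprotectin, the most familiar extracellular S100 complex, which binds zinc and manganese and signals through the receptors encoded by Tlr4 and Ager. S100a9 (ENSMUSG00000056071; GRCm38 chromosome 3, 90692630 to 90695721) stood at 2372, 2909 and 2440.5 normalized counts in control replicates 1, 2 and 3 and at 5158, 6076 and 3414 after anti-CD73. All 3 anti-CD73 libraries were above all 3 controls. Its log2 fold change was 0.89 (SE 0.21), a fold of 1.85, and did not pass (limma adjusted p = 0.166), whereas it passed without control replicate 1 (0.83, adjusted p = 0.0218). S100a8 (chromosome 3, 90669071 to 90670034) stood at 1667, 3042 and 2864 in controls and at 3279, 4324 and 2369 after anti-CD73. These groups overlapped, since anti-CD73 replicate 3 lay below control replicates 2 and 3. Its log2 fold change was 0.40 (SE 0.29, limma adjusted p = 0.544), or 0.13 without control replicate 1.

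The balance of the calprotectin chains was read within each library as S100a9 per S100a8. That ratio was 1.42, 0.956 and 0.852 in controls and 1.57, 1.41 and 1.44 after anti-CD73. Control replicate 1 lay in the range of the treated libraries and the other controls lay below it. The mean log2 ratio differed by 0.49 (control mean 0.071 ± 0.39, anti-CD73 mean 0.56 ± 0.085, SD, n = 3 each), with an exact two-sided permutation p = 0.2 where 0.1 is the smallest that 3 against 3 allows, and by 0.70 without control replicate 1. Within the S100 reads of a library, S100a9 took 8.08, 7.32 and 5.57% in controls and 17.4, 20.0 and 12.7% after anti-CD73. The summed normalized counts of the S100 members other than S100a8 and S100a9 had a fold of 0.64. That lower remainder raises the share beyond the difference in S100a9 itself.

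S100a7a, a mouse relative of psoriasin in the same gene cluster, was scarce. It stood at 6.09, 22.8 and 23.2 normalized counts in controls, from 6, 18 and 31 reads, and at 33.5, 36.0 and 47.3 after anti-CD73, from 36, 34 and 46 reads. The groups did not overlap. The log2 fold change of 1.30 (SE 0.51, limma adjusted p = 0.286) became 0.72 without control replicate 1 (adjusted p = 0.0976), so the lowest library set much of its size.

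Genes of neutrophils, the main source of calprotectin, had a higher summed level after anti-CD73. The 12 measured neutrophil markers, a list that holds no S100 gene, summed to 3145 to 4545 normalized counts in controls and 6634 to 8394 after anti-CD73. Of its 9 tested genes, 7 had a log2 fold change above 0. Lcn2 was the largest part of the sum in each library, at 1116 to 2397 in controls and 2242 to 3942 after anti-CD73. Cxcr2 had the smallest limma p of the list (257 to 361 in controls, 664 to 900 after anti-CD73). Ngp (22.3 to 179 and 39.1 to 148) had a log2 fold change of -0.0017. Of the defining genes, Csf3r (the G-CSF receptor) was at 382 to 810 in controls and 1262 to 2202 after anti-CD73, Ly6g was at 93.8 to 253 and 118 to 153, and Camp, Elane and Mpo were at or below 11.4 in every library. All 12 macrophage genes of the list had a log2 fold change above 0. With all 6 libraries no gene of either list passed the adjusted test. Without control replicate 1 limma called 3 of 9 neutrophil and 8 of 12 macrophage genes, all higher (background 11.9%). Among them were Csf3r (1.61 with that library and 1.89 without it, adjusted p = 0.00203) and Cxcr2 (1.30 and 1.40, adjusted p = 0.00198). The macrophage gene Adgre1 was another (0.85 and 1.51, adjusted p = 0.00272). Its level was 745 in control replicate 1, 226 and 157 in the other controls, and 429 to 616 after anti-CD73. The omitted control was thus the highest library for Adgre1, and its macrophage sum (17815) lay within the treated range (15865 to 26091). The part of either list in the S100a9 values was not tested. Cornified keratinocyte genes, from cells that can express S100a7a and S100a8, had Krt1, Lor and Krtdap at 0 in all 6 libraries and Krt10 and Ivl at or below 3.05. Sprr1a was the exception in that list, at 1472 to 2142 in controls and 1022 to 1639 after anti-CD73, and it passed without control replicate 1 (-0.67, limma adjusted p = 0.0222).

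**Figure D1:**
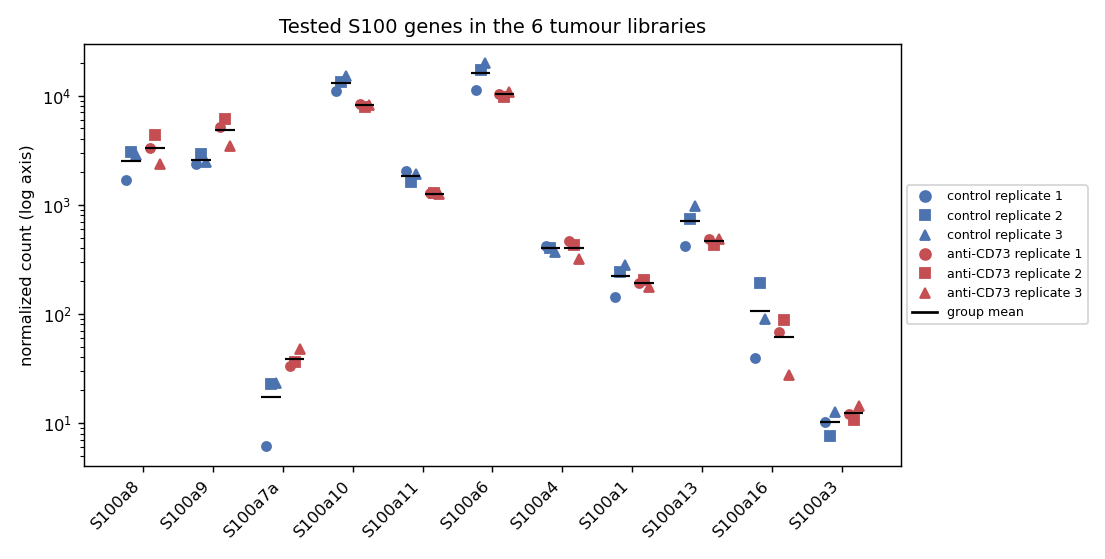
Normalized counts (log axis) of the 11 tested S100 genes in each library, with controls in blue, anti-CD73 in red, a symbol per replicate and a line at the group mean. The red points lie above all blue points for S100a9 and S100a7a and below them for S100a10, S100a11 and S100a6, and overlap them for the other genes.

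The promoters of S100a8 and S100a9 are shown because these neighbouring genes are read as a pair. Each run covers the 200 bases before the RefSeq start, 5′ to 3′ on the gene's strand, from GRCm38.p6. Capitals mark a match to any of 5 motifs searched on both strands, given with the share of 32851 promoter windows of equal length (250 bases before to 50 after a start, unlike the 200 printed) that hold them: AP-1 (TGANTCA, 7.81%), C/EBP (TTGCNNAA, 10.8%), PU.1 (GAGGAAG, 13.6%), the TATA box (TATAAA, 13.6%) and the NRF2 element (TGACNNNGC, 12.4%). AP-1 and NRF2 letters can overlap.
S100a8, chr3:90668871-90669070, plus strand: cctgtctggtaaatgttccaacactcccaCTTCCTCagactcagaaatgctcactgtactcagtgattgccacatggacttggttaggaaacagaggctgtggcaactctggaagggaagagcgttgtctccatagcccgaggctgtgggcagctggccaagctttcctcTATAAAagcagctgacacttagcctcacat
S100a9, chr3:90695722-90695921, minus strand: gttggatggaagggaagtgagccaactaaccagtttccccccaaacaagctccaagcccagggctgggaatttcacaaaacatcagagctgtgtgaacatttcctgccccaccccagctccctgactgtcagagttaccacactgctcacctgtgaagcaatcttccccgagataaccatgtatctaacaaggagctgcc
The S100a8 run holds a PU.1 match that begins 171 bases before the start, on the opposite strand, and a TATA box 30 bases before it. The S100a9 run holds none of these letters. Its C/EBP match begins 236 bases before the start and its TATA letters begin at the start itself, both outside the printed run. A match is a description of the letters and not of binding.

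S100a10, S100a11, S100a6 and S100a4 encode intracellular S100 proteins that bind annexins or the cytoskeleton, and the first 3 had lower levels after anti-CD73 with groups that did not overlap. S100a10 (ENSMUSG00000041959; chromosome 3, 93555117 to 93564645) encodes the S100 protein that has lost calcium binding and sits permanently on annexin A2. It stood at 11077, 13299.7 and 15025 normalized counts in controls and at 8351, 7835 and 8164 after anti-CD73. The treated libraries were close together and all below the lowest control. Its log2 fold change of -0.68 (SE 0.14), a fold of 0.623, had the smallest p of all members but did not pass (limma adjusted p = 0.149), and was -0.80 without control replicate 1 (adjusted p = 0.00154).

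S100a11 (ENSMUSG00000027907; chromosome 3, 93520496 to 93526288), whose product binds the tail of annexin A1, stood at 2019.6, 1599 and 1914 in controls and at 1273, 1267 and 1247 after anti-CD73. The treated libraries again formed a narrow band below every control (log2 fold change -0.54, SE 0.12, limma adjusted p = 0.162), and without control replicate 1 the value was -0.47 (adjusted p = 0.00982). RefSeq also lists a pseudogene named S100a11-ps, and no label says how reads shared with it were counted, so the level of S100a11 is uncertain to that extent. S100a6 (ENSMUSG00000001025; chromosome 3, 90612894 to 90614414), or calcyclin, stood at 11175.5, 17260.4 and 19809.6 in controls and at 10307, 9701 and 10666 after anti-CD73. Control replicate 1 lay just above the treated libraries and far below the other controls. The log2 fold change was -0.61 (SE 0.21, limma adjusted p = 0.236), and -0.86 without that control (adjusted p = 0.00154). S100a4 (chromosome 3, 90603770 to 90606045), a binder of nonmuscle myosin linked to cell motility, stood at 422, 402 and 372 in controls and at 462, 429 and 318 after anti-CD73. Its groups overlapped fully, with a log2 fold change of -0.0010 (SE 0.17) whose sign turned under other settings, to 0.042 without control replicate 1 and to 0.16 without anti-CD73 replicate 3.

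In the other tested S100 genes the SD of the controls was larger than the difference between the group means. S100a13, which helps to release growth factors that lack a secretion signal, stood at 421, 739 and 967 in controls and at 482, 424 and 483 after anti-CD73 (log2 fold change -0.54, SE 0.28, limma adjusted p = 0.411). S100a1, a regulator of calcium cycling in muscle, stood at 141, 242 and 282 in controls and at 193, 202 and 176 after anti-CD73 (-0.16, SE 0.26, limma adjusted p = 0.804). In both genes control replicate 1 was the lowest control, and without it both passed (S100a13 -0.87, adjusted p = 0.00367; S100a1 -0.46, adjusted p = 0.0461). Leaving out control replicate 3, the highest control for both, moved them the other way, to -0.27 for S100a13 (adjusted p = 0.624) and 0.041 for S100a1 (adjusted p = 0.950). Their RefSeq gene models overlap by 98 bases, and whether counting kept strand is not stated, so reads there cannot be told apart. Muscle genes, another place where S100a1 is used, summed to only 118 to 255 normalized counts in controls and 239 to 265 after anti-CD73 (6 genes). Of the 4 tested, 1 was called higher only without control replicate 1 (background 11.9%), which was Tnnt3 (1.43, limma adjusted p = 0.0384). The part of the muscle genes was not tested. S100a16 stood at 39.6, 190.1 and 89.1 in controls and at 67.9, 87.9 and 27.8 after anti-CD73 (-0.66, SE 0.62, limma adjusted p = 0.647). That value ranged widely with 1 library left out, being -1.23 when control replicate 1 was omitted, -0.11 when control replicate 2 was, and -0.18 without anti-CD73 replicate 3. S100a3, a protein of the hair shaft, stood at 10.2, 7.60 and 12.7 in controls and at 12.1, 10.6 and 14.4 after anti-CD73 (0.28, SE 0.36, limma adjusted p = 0.754), just above the level needed for testing, and -0.078 with quantile normalization. Its RefSeq gene model spans S100a2, so reads of the pair may be split between them.

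The S100 members below the test level were S100b, a protein of glia and fat cells, with 13 reads over the controls and 11 over the anti-CD73 libraries, S100a14 with 12 and 5, and S100a2 with 3 and 1. Exact 95% Poisson intervals for S100a14 were 6.20 to 21.0 and 1.62 to 11.7 reads, from 40151969 and 36788368 reads in all, and cover counting error only. A difference was not detectable at this depth.

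Position along the chromosome was not used to choose the genes. Of the 17 S100 members, 14 lie on mouse chromosome 3, 12 of them in a stretch of 185 kb from S100a1 to S100a9 with no other protein-coding gene of RefSeq in it, and S100a11 and S100a10 lie in a second stretch of 44.2 kb. Position was not tested against the values, and no gene of the stretch passed with all 6 libraries. In order along the longer stretch, S100a1, S100a13, S100a16 and S100a3 had log2 fold changes of -0.16, -0.54, -0.66 and 0.28, S100a4 and S100a6 had -0.0010 and -0.61, and S100a7a, S100a8 and S100a9 had 1.30, 0.40 and 0.89. The sign turned under another setting for S100a1, S100a3, S100a4 and S100a8. The nearest tested genes beyond S100a1 were Chtop, an mRNA export factor, at 0.032 (SE 0.10) and Snapin, a vesicle docking protein, at -0.25 (SE 0.14). Beyond S100a9 the nearest were the cornified envelope genes Sprr2i (0.67, SE 0.43) and Sprr2k (0.17, SE 0.21), 1897 kb or more from the S100a1 end. None of these 4 passed (limma adjusted p = 0.428 to 0.911), but Snapin did without control replicate 1 (-0.35, adjusted p = 0.0359).

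**Figure D2:**
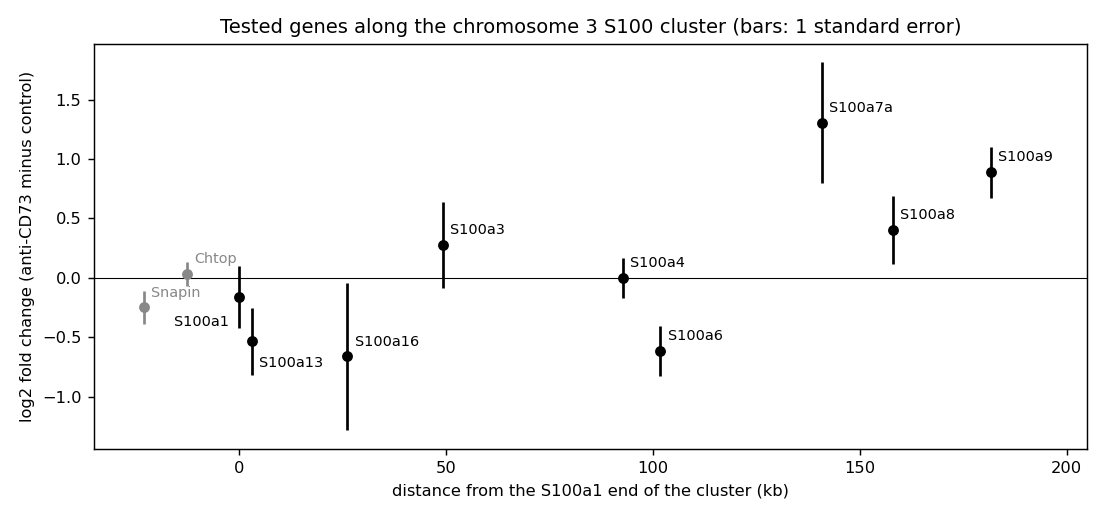
Log2 fold change (anti-CD73 minus control, bars 1 SE) of the 9 tested S100 genes of the longer chromosome 3 stretch and of 2 flanking genes (grey), against distance in kb from the S100a1 end. S100a7a, S100a8 and S100a9 at the right lie above 0, S100a1, S100a13, S100a16 and S100a6 lie below it, S100a3 lies above it between them, and no gene passed the adjusted test.

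Annexins A1 and A2 are the partners of S100A11 and S100A10. Anxa1 (ENSMUSG00000024659; chromosome 19, 20373434 to 20390671) encodes the glucocorticoid-induced annexin that quiets neutrophils through the formyl peptide receptor encoded by Fpr2. It stood at 24175, 15713 and 16978.5 normalized counts in controls and at 11951, 11448 and 13997 after anti-CD73. All treated libraries were below all controls, with control replicate 1 far above the rest. The log2 fold change was -0.58 (SE 0.18, limma adjusted p = 0.215), and -0.40 without that control (adjusted p = 0.0238). Anxa2 (ENSMUSG00000032231; chromosome 9, 69453683 to 69491792), which gathers plasminogen and its activator at the cell surface, stood at 14705, 17805 and 18899 in controls and at 14468, 14332 and 14148 after anti-CD73. Here control replicate 1 lay only just above the treated libraries (log2 fold change -0.25, SE 0.13, limma adjusted p = 0.396; -0.36 without that control, adjusted p = 0.0116).

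S100a10 was lower relative to its partner in every treated library. S100a10 per Anxa2 was 0.753, 0.747 and 0.795 in controls and 0.577, 0.547 and 0.577 after anti-CD73, and the groups did not overlap. The ratio of control replicate 1, the lowest control for each gene alone, lay between those of the other controls. The control mean of the log2 ratio was -0.39 ± 0.049 and the anti-CD73 mean -0.82 ± 0.045 (SD, n = 3 each), a difference of -0.43 with an exact two-sided permutation p = 0.1, the smallest this design allows. Leaving out any one library kept the difference between -0.45 and -0.40. S100a11 per Anxa1 showed no such shift. That ratio was 0.0835, 0.102 and 0.113 in controls and 0.107, 0.111 and 0.0891 after anti-CD73, the groups overlapped, and the mean log2 ratio differed by 0.045 (exact two-sided permutation p = 0.7), with the sign turned without control replicate 1 (-0.075) or anti-CD73 replicate 2 (-0.017). With 3 ratios examined, none could pass an adjusted threshold.

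**Figure D3:**
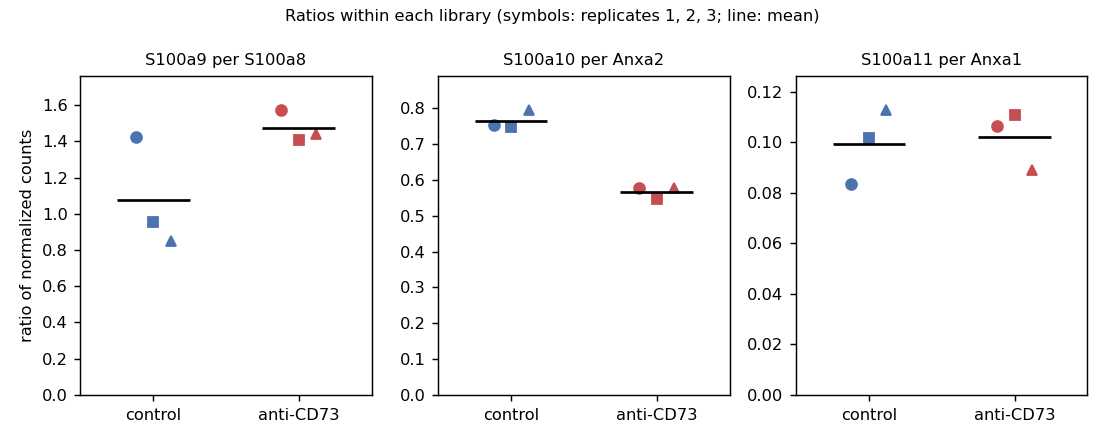
Ratios of normalized counts within each library for S100a9 per S100a8, S100a10 per Anxa2 and S100a11 per Anxa1, with controls in blue, anti-CD73 in red, a symbol per replicate and a line at the mean. S100a10 per Anxa2 separates the groups (0.747 to 0.795 against 0.547 to 0.577), while the other ratios overlap.

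The promoters of Anxa1, its partner S100a11 and Anxa2 are shown as examples among the members with log2 fold changes below 0. Capitals mark the same 5 motifs as above, in the 200 bases before each RefSeq start (GRCm38.p6). S100a10, S100a2, S100a14, Anxa3 and Anxa6 were not among the 23 of 28 members matched to the RefSeq promoter table.
S100a11, chr3:93520296-93520495, plus strand: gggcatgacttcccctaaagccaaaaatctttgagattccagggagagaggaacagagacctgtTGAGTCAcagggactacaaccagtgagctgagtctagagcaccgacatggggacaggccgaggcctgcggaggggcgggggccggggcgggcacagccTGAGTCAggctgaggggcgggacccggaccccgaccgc
Anxa2, chr9:69453483-69453682, plus strand: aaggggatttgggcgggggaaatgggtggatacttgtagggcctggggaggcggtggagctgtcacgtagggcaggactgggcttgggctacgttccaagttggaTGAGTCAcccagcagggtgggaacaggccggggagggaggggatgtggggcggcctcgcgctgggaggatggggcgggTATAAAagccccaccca
Anxa1, chr19:20390672-20390871, minus strand: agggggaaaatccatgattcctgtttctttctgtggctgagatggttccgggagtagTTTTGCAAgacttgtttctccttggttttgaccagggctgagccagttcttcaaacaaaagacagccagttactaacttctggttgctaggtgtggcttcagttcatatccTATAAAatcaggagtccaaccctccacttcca
S100a11 holds AP-1 letters that begin 136 and 38 bases before the start, and Anxa2 holds them once, 95 bases before. Anxa1 holds a C/EBP match and a TATA box and no AP-1 letters. The same 200 bases of S100a6, S100a13 and Anxa5 were searched as well and hold none of the 5 motifs. These genes also had log2 fold changes below 0, and their runs are not printed. Over the 30 promoter windows of the 23 matched members, AP-1 letters were in 4 (13.3%, against 7.81% of all windows), 1 window each for Anxa2, Anxa10, S100a11 and S100a16, of which Anxa10 had no read.

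Annexins A3 to A7 and A11 are widely expressed, and 5 of these 6 had a log2 fold change below 0. Anxa3 (chromosome 5, 96793385 to 96845968) stood at 736, 768 and 703 normalized counts in controls and at 508, 398 and 575 after anti-CD73. The groups were well apart and control replicate 1 lay between the other controls (log2 fold change -0.59, SE 0.16, limma adjusted p = 0.178; -0.59 without control replicate 1, adjusted p = 0.0242). Anxa5 (chromosome 3, 36448923 to 36475887), whose protein coats phosphatidylserine and is used to stain dying cells, stood at 6357, 7237 and 7663 in controls and at 5344, 4861 and 5545 after anti-CD73. Every treated library was below every control (-0.43, SE 0.12, limma adjusted p = 0.183; -0.51 without control replicate 1, adjusted p = 0.00462). Anxa11, which tethers RNA granules to lysosomes, stood at 1276, 1833 and 1895 in controls and at 1348, 1358 and 1379.97 after anti-CD73. Control replicate 1 lay below all treated libraries, so the groups overlapped (-0.27, SE 0.16, limma adjusted p = 0.469), and without it the value was -0.45 (adjusted p = 0.00491).

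Anxa7, or synexin, differed little in size but did not overlap, with 3499 to 3627 in controls and 3033 to 3306 after anti-CD73 (-0.18, SE 0.097, limma adjusted p = 0.409). Anxa4 was at 1524 to 1838 in controls and 1452 to 1559.6 after anti-CD73 (-0.16, SE 0.11, limma adjusted p = 0.546). Anxa6 (chromosome 11, 54978953 to 55033471), the annexin with a doubled core, was the only tested annexin with a log2 fold change above 0. It stood at 609, 702 and 938 in controls and at 1026, 1124 and 880.2 after anti-CD73, where the lowest treated library lay below the highest control (0.45, SE 0.18, limma adjusted p = 0.307; 0.31 without control replicate 1, adjusted p = 0.158). Anxa9, an annexin that has lost calcium binding, was at 34.5 to 55.4 in controls and 35.0 to 42.4 after anti-CD73 (-0.18, SE 0.26, limma adjusted p = 0.783; 0.0019 without control replicate 3). Anxa8 had 7 reads over the controls and 26 over the anti-CD73 libraries (exact 95% Poisson intervals 2.81 to 14.4 and 16.98 to 38.1), and anti-CD73 replicate 3 had a level of 1.03 normalized counts, inside the control range of 1.02 to 2.99.

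**Figure D4:**
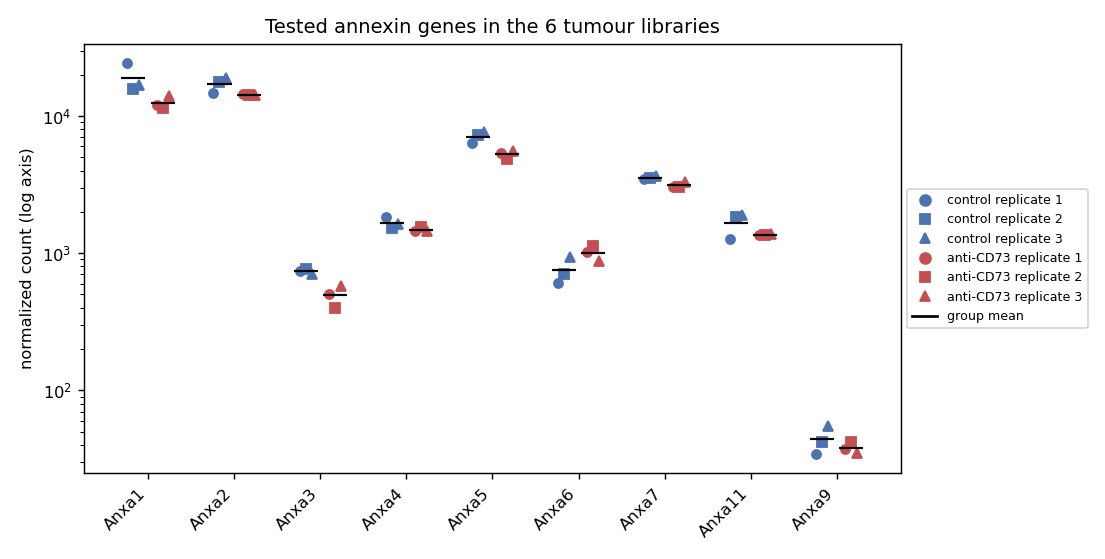
Normalized counts (log axis) of the 9 tested annexin genes in each library, with controls in blue, anti-CD73 in red, a symbol per replicate and a line at the group mean. Red points lie below all blue points for Anxa1, Anxa2, Anxa3, Anxa5 and Anxa7, and Anxa6 is the only gene with the higher mean after anti-CD73.

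Summed over the members, S100 genes held 29357, 39722 and 43811 normalized counts in controls and 29627, 30400 and 26928 after anti-CD73, so control replicate 1 lay within the treated range. Without S100a8 and S100a9 the sum was 25318, 33771 and 38506 in controls and 21189.7, 19999.5 and 21145 after anti-CD73. The 11 annexins summed to 53231, 49171 and 52392 in controls and 39176, 38194 and 41319 after anti-CD73, a mean of 51598 ± 2143 against 39563 ± 1598 (SD, n = 3 each), and all controls were above all treated libraries. The small SD of the annexin controls hides opposite shifts. Control replicate 1 was the highest control for Anxa1 (24175) and the lowest for Anxa2 (14705) and Anxa5 (6357). The annexin fold was 0.77 by summed normalized counts and 0.81 by percent of recovered reads. These sums are dominated by the genes with most reads and carry no test. Cell markers in the same libraries included 8 tumour epithelium genes, which summed to 1960 to 4664 in controls and 2128 to 2705 after anti-CD73, and 10 fibroblast genes, at 4361 to 5466 and 6059 to 7179. The 5 measured erythroid genes summed to 7845, 55529 and 58716 in controls and 20624, 30978 and 8412 after anti-CD73, so control replicate 1 was the lowest control for them as for the S100 sum. All 5 were called lower by limma without control replicate 1 (background 10.3%) and none with it. Krt8 was likewise called lower only without it (-0.80, adjusted p = 0.00516). Krt18 (-0.29) and Krt19 (1.83, or 0.84 without it) passed in neither fit. Cdh1, under the test level, was at 3.74 to 5.08 in controls and 5.14 to 22.2 after anti-CD73. Of 9 tested fibroblast genes, 2 were called higher only without control replicate 1 (background 11.9%), Pdgfrb (0.76, limma adjusted p = 0.00970) and Fn1 (1.47, adjusted p = 0.00392). The part of any of these in the lower sums was not tested.

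**Figure D5:**
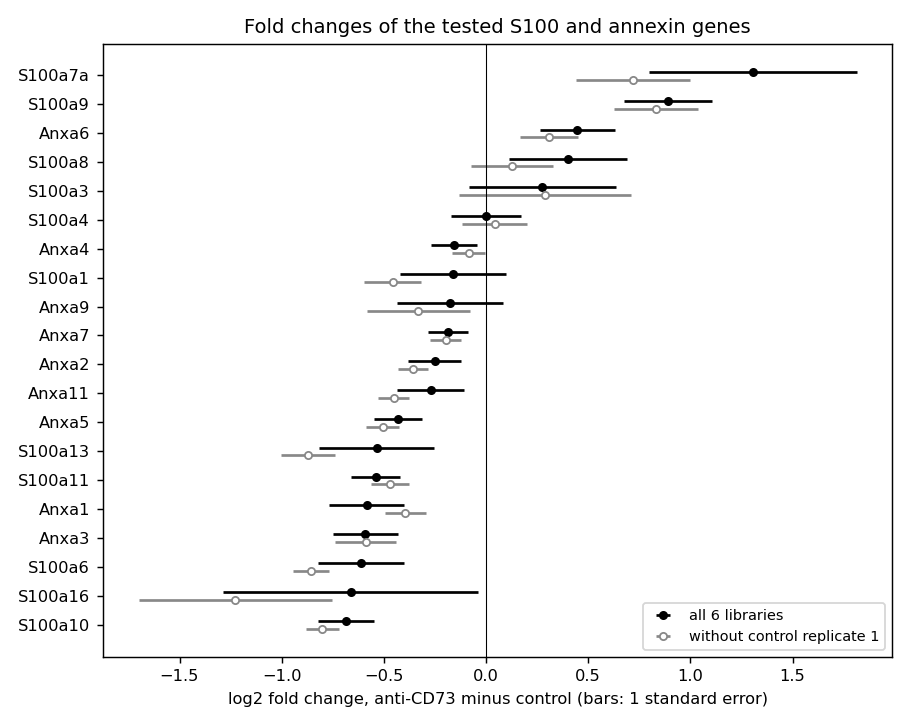
Log2 fold change (anti-CD73 minus control) of the 20 tested members with bars of 1 SE, from all 6 libraries (filled) and without control replicate 1 (open). Most genes lie below 0 in both, while S100a9, S100a7a, S100a8, S100a3 and Anxa6 lie above 0 in both. The values of S100a13, S100a16 and S100a7a shift most without control replicate 1.

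Of 8 receptors and partners of S100 proteins, 0 passed by limma with all 6 libraries (5 above 0, 3 below, median log2 fold change 0.14). Without control replicate 1, 2 were called higher (background 11.9%), Tlr4 and the scavenger receptor gene Cd36. With all 6 libraries the smallest p of the 8 were those of Cacybp, the calcyclin-binding protein, at -0.37 (SE 0.13) and its partner Sugt1 at -0.20 (SE 0.11). Next was the S100A4 target Myh9 at 0.31 (SE 0.25), which was 0.0049 without control replicate 1. Tlr4 was at 0.24 (SE 0.25), or 0.54 without that library (SE 0.12, limma adjusted p = 0.0154), and Ager at 0.19 (SE 0.41), or -0.13 without it. Cd36 was at 0.28, or 1.19 without it (limma adjusted p = 0.0217). Control replicate 1 had the highest Cd36 level of all 6 libraries, 945 against 156 and 126 in the other controls and 241 to 520 after anti-CD73. The mean Cd36 level was 409 in controls and 343 after anti-CD73. For Tlr4 that library was also the highest (660, against 465 to 550 after anti-CD73), so both calls depend on leaving it out. Of the 12 annexin receptors and partners, 10 were tested and 0 passed (5 above 0, 5 below, median -0.056). Without control replicate 1 limma called 4 of the 10 higher (background 11.9%) and 1 lower (background 10.3%). The penta-EF-hand gene Pdcd6, whose product binds annexins A7 and A11, was at 1980 ± 54.8 normalized counts in controls and 1417 ± 98.7 in treated libraries (SD, n = 3 each), a log2 fold change of -0.48 (SE 0.10, limma adjusted p = 0.152), and was the one called lower without that library (-0.46, adjusted p = 0.00725). The formyl peptide receptor genes Fpr1 (0.75, SE 0.29) and Fpr2 (0.62, SE 0.38) were among the 4 called higher without it, at 0.98 (limma adjusted p = 0.0185) and 1.05 (adjusted p = 0.0111). Both lay above 0 in either fit, as did most of the neutrophil and all of the macrophage markers given above. Among 22 other EF-hand calcium genes, 20 were tested and 0 passed, 13 of them below 0 (median -0.076). Without control replicate 1 limma called 2 of the 20 higher (background 11.9%) and 5 lower (background 10.3%). The calmodulin gene Calm2 (-0.60, SE 0.098), the plastin gene Pls3 (-0.54, SE 0.10) and the sorcin gene Sri (-0.53, SE 0.11) had the smallest p. Each had groups that did not overlap (background 12%) and was among those 5 (limma adjusted p = 0.00208, 0.00335 and 0.00300). They were picked by p in these same libraries, so neither trait is separate support.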

How the data were processed

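RNA-seq of 6 tumour samples was used. Per the labels, the deposited signal is a DESeq-normalized count for each gene, scaled by the authors. The submitters' processing notes list Bowtie 0.12.7 and mm10. No source used here gives the counter, its annotation or its handling of strand. Columns were matched to samples by description. Dividing each column by its smallest step gave whole reads for 100% of values (tolerance 0.01), and these reads give the depth, 10180624 to 17161679 per library.

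Groups were compared with limma 3.58.1 (R 4.3.3), with a trended prior and no block, after adding 1 to each normalized count and taking log2, over the 12262 genes with a mean of at least 10. Fold changes on this scale understate those of low genes. edgeR 4.0.16 and DESeq2 1.42.0 were run on recovered reads as alternatives, beside other pseudocounts, filters, scalings, replicate blocks and omitted libraries. The count tests without control replicate 1 were chosen after seeing the data. Scripts were tested on simulated data. Every member is named. Partners, sensors and marker lists were fixed lists, of which the 3 smallest p are named per partner or sensor list. Tlr4, Ager, Cd36 and the single markers were named after their values were seen. The members and lists were chosen with earlier results of these data known. Coordinates are from RefSeq GRCm38.p6, the assembly of mm10, matched by Entrez ID. Gene spans but no transcript lengths were at hand. Levels of different genes, and the ratios, shares and sums built from them, are therefore not corrected for transcript length. Figures were drawn with matplotlib 3.10.9.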

Additional observations from a re-analysis of the deposited data

How the results depend on the processing

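With all 6 libraries limma called 0 genes and 0 members (1902 genes at an unadjusted p under 0.05), and with each library left out in turn 0 to 2724 genes and 0 to 11 members, where the upper values are those without control replicate 1 and every other omission gave 0. DESeq2 called 586 genes and 5 members. Chosen after seeing the data, edgeR without control replicate 1 called 2703 and 11, and DESeq2 without it 2679 and 10. No label says whether the replicate numbers in the titles pair the samples. Correlations of deviations were 0.19, -0.096 and 0.26 for libraries of the same title number. They were -0.27 to 0.19 for the other combinations, which does not settle pairing. A block by title number called 0 genes and 0 members. A block by description number called 1780 genes and 9 members, but it drops control replicate 1 and anti-CD73 replicate 2 from the contrast by construction. Of 20 tested members, 15 kept their sign in every setting. Sizes changed with scaling. Quantile normalization brought some abundant members nearer 0, Anxa2 from -0.25 to -0.075 and Anxa1 from -0.58 to -0.38. S100a6 went from -0.61 to -0.43 and S100a10 from -0.68 to -0.52. Other members moved away from 0, such as Anxa9 from -0.18 to -0.40 and S100a9 from 0.89 to 0.96. The member median was -0.22 in the main fit and -0.24 with quantile normalization. Sign turned for S100a4 (0.0035 with TMM, 0.038 with edgeR, 0.023 with DESeq2, 0.042 without control replicate 1, 0.0053 without control replicate 2, 0.16 without anti-CD73 replicate 3, -0.11 to 0.16 over all omissions, 0.076 with edgeR and 0.076 with DESeq2 without control replicate 1), S100a1 (0.041 without control replicate 3, from -0.46), Anxa9 (0.0019 without control replicate 3, from -0.33), S100a3 (-0.078 with quantile normalization) and S100a8 (-0.083 with the block by description number), and for Myh9 (-0.012 with that block), Chtop (-6.2e-05 without anti-CD73 replicate 3, up to 0.069) and Sprr1b (-0.024 without control replicate 2, up to 0.53). Bounds after a comma are the other end of the range over omitted libraries. S100a11 per Anxa1 ranged from -0.075 to 0.14 with libraries left out (-0.075 without control replicate 1, -0.017 without anti-CD73 replicate 2), S100a9 per S100a8 from 0.33 to 0.70, and S100a10 per Anxa2 from -0.45 to -0.40. With libraries left out, the summed S100 level differed by -30.6 to -16.1% and the annexin level by -25.1 to -22.0%. The cause of these shifts was not tested. Members with few reads, such as S100a3, S100a7a and Anxa8, limit what depth can show.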

Other observations

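One entry without a symbol in the deposited table carries the Ensembl ID of Anxa13 (ENSMUSG00000055114) in the reference name table. It held 1 read, in anti-CD73 replicate 1, and was not counted as a member. Around the shorter S100 stretch on chromosome 3, the nearest tested genes on the S100a11 side were the cornified envelope genes Sprr1a (log2 fold change -0.51, SE 0.21) and Sprr1b (0.22, SE 0.28), and on the S100a10 side the thioesterase gene Them4 (-0.80, SE 0.26) and the mitochondrial ribosome gene Mrpl9 (-0.18, SE 0.11). None of the 4 passed with all 6 libraries (limma adjusted p = 0.228 to 0.743), and both of the latter had groups that did not overlap. Without control replicate 1, Sprr1a (-0.67, adjusted p = 0.0222) and Sprr1b (0.53, adjusted p = 0.0338) passed.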
